A study of Mus musculus with 6 samples.

Results

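Insr, Irs1, Irs2, Pik3r1, Akt1, Akt2, Foxo1, Foxo3 and Sos1 encode the receptor for insulin and the proteins that carry its signal into the cell. They were examined in liver RNA of Mir137-/- mice, which lack the microRNA miR-137 in the whole body, and of Mir137+/+ mice, both at postnatal day 14. Members were all probe sets (groups of short array probes read as 1 value) of the mouse array whose platform annotation named exactly 1 gene, that gene being 1 of these 9. This gave 28 of the 45037 probe sets tested, and 9 of 18193 genes. Foxo3 was also listed on 1 further probe set together with another gene, and that probe set was left out. The question was whether transcripts of the insulin signalling core differed between the genotypes in a liver that lacked miR-137.

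There were 3 Mir137-/- and 3 Mir137+/+ arrays, each with total RNA from the liver of 1 untreated mouse. The null allele came from E14 embryonic stem cells in which Cre removed a floxed region holding miR-137, and from crosses of chimeras to C57BL/6, and most experiments of the study used offspring of heterozygous parents. The deletion was present in every tissue, brain included, and the liver values therefore cannot be assigned to loss of miR-137 in liver cells. The study describes the mice as males, but not all Mir137+/+ arrays read as male, as given below.

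Insulin binds its receptor, a tyrosine kinase, which phosphorylates the adaptor proteins IRS1 and IRS2. These recruit PI3K, whose regulatory subunit p85 alpha is made from Pik3r1, and PI3K activates the kinases AKT1 and AKT2. AKT phosphorylates the transcription factors FOXO1 and FOXO3 and keeps them out of the nucleus, and in the fasted liver FOXO1 returns to the nucleus and raises genes of glucose production as well as Irs2 itself. SOS1 belongs to the other arm: it loads RAS with GTP and so feeds the MAP kinase pathway. IRS2 is known as an adaptor that is high in the fasted liver, and AKT2 as the main AKT kinase of the liver's metabolic response, whereas AKT1 is linked more to growth.

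The deleted microRNA is shown first, because it lies in the stretch that the genotypes were designed to differ in. RefSeq (GRCm38.p6) gives 2 mature forms from the Mir137 hairpin on the plus strand of chromosome 3, the 3p form at chr3:118433901-118433923 and the 5p form at chr3:118433865-118433887. The capitals mark the seed, bases 2 to 8, which pairs with target transcripts. No probe set named Mir137 was analysed here, so its loss could not be read from these arrays, and target sites in the transcripts of the 9 genes were not analysed here.
mmu-miR-137-3p: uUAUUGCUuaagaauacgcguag
mmu-miR-137-5p: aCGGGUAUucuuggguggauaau

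The promoters of Irs2 and its relative Irs1 are shown next, because Irs2 is a known target of FOXO1 and SREBP factors and was the only member that rose. The windows run from 250 bases before to 50 bases after the annotated start, read along the minus strand, on which both genes lie, at chr1:82291390-82291689 for Irs1 and chr8:11008880-11009179 for Irs2. Capitals mark the core of the insulin response element bound by FOXO proteins (CAAAACA, read here on the other strand as TGTTTTG) and the E-box CACGTG, which is bound by basic helix-loop-helix factors such as USF and SREBP. Both motifs were searched on both strands.
Irs1: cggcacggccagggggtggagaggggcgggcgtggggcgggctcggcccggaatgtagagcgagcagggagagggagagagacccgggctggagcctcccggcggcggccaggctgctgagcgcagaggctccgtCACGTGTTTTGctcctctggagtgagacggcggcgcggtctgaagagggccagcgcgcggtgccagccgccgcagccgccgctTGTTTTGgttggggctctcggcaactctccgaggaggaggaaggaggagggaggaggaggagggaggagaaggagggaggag
Irs2: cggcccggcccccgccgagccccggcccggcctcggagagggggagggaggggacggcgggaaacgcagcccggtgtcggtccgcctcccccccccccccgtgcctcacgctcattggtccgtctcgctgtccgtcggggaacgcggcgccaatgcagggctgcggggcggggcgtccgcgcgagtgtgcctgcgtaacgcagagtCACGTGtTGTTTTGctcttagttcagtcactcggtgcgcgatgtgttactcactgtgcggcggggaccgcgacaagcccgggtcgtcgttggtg

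In the Irs2 window the E-box lay 44 to 39 bases before the start and the element core 37 to 31 bases before it, with a single base between them. In the Irs1 window an E-box (115 to 110 bases before the start) overlapped an element core (111 to 105), and another core lay 32 to 26 bases before the start. The element core was present in 6.28% and the E-box in 7.15% of all 32851 promoter windows of the same length. An E-box overlapping a core or within 1 base of it, in the orientation seen in these 2 genes or its reverse complement, was found in 9 windows, and Irs1 and Irs2 supplied 2 of them. This pairing was counted after it had been seen in both genes. A further FOXO motif, TGTTTAC (or GTAAACA), was present in 3.65% of windows and, among the members, only in 1 of the Akt1 windows (chr12:112674835-112675134), 161 to 155 bases before that start. Windows were found for 8 of the 9 genes, 13 in all. A match describes letters, and was not tested for binding.

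The arrays themselves set limits that touch these values. Hepatocyte markers lay above the array median on all 6 arrays, with Alb at 13.71 to 13.74 in Mir137-/- and 13.73 to 13.79 in Mir137+/+ livers. The dimmest, Ass1, was at 6.32 to 7.93 and 7.12 to 7.31. By each gene's brightest probe set the genotypes did not overlap on 4 of the 9 measured markers, beside 32.3% of all genes. In log2 units, Mir137-/- minus Mir137+/+, these were Hnf4a (-0.34), Cps1 (-0.30), Fgb (-0.11) and Apob (0.29). The mean difference was -0.15 over the 4 Hnf4a probe sets, with none called. It was 0.445 over the 2 Apob probe sets, of which 1, not the brightest, passed the call defined below. The summed level of the 9 measured of 10 listed markers (log2 of the sum of unlogged values) was 15.90 to 15.96 in Mir137-/- and 15.96 to 15.97 in Mir137+/+ livers, and array medians were 4.88 to 4.91. Xist, the transcript of the silenced X chromosome of females, was at 3.66 to 4.24 on the Mir137-/- arrays. In Mir137+/+ livers it was at 3.94 on replicate 1 but 10.91 and 10.81 on replicates 2 and 3. There the Y-linked Eif2s3y was at 2.06 and 2.51, against 8.46 to 8.62 on the other arrays. Mir137+/+ replicates 2 and 3 thus read as female, unlike the study's description, and all other arrays as male. Sex and genotype partly coincided, and their parts in a difference cannot be fully told apart. All 10 skeletal muscle markers were measured, and their summed level was 12.35 on Mir137-/- replicate 1 and 7.65 to 8.01 elsewhere. The 8 measured exocrine pancreas markers summed to 11.93 on Mir137-/- replicate 2 and to 10.66 on Mir137+/+ replicate 2, and to 7.97 to 8.48 elsewhere. In bulk RNA, fewer cells of a type and less RNA per cell cannot be told apart.

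Across the 9 genes, by the brightest probe set of each, 1 rose and 1 fell in Mir137-/- liver. Irs2 was 1.66-fold higher and Sos1 was at 0.640 of its Mir137+/+ level. The mean of the 5 Sos1 probe sets was not called (-0.20, adjusted p = 0.218, limma). A probe set was called when its adjusted p (limma, Benjamini-Hochberg over all 45037 probe sets) was below 0.05 and its fold change above 1.5, which is 0.585 on the log2 scale. By this rule 1 of 28 member probe sets was called higher, beside 1.94% of all probe sets, and 1 was called lower, beside 2.58%. The 2 calls together made 7.14% of the members, beside 4.52% of the whole table. At any fold the same 2 probe sets had an adjusted p below 0.05, where 7.73% of all probe sets did. With the brightest probe set standing for each gene, 1 gene of 9 was called in each direction, beside 2.29% of all genes called higher, 3.27% called lower and 5.56% called either way.

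The genotypes did not overlap on 9 of the 28 probe sets (32.1%), beside 27.5% of the whole table, so separation alone was common on these arrays. The exact two-sided permutation test over 3 and 3 arrays gave its smallest possible p, 0.1, for each of those 9. The median log2 difference (Mir137-/- minus Mir137+/+) over the members was -0.10, beside 0.01 over all probe sets, and the median size without sign was 0.18, beside 0.14. An unadjusted p below 0.05 (limma) was reached by 8 of the 28 member probe sets, beside 10043 of all 45037, so this too was common on these arrays. Of the 28, 8 were dimmer than the median probe set, and 2 of these, both of Sos1, lay below the lower quartile. No detection calls were used, so a dim value has no stated floor.

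**Figure D1:**
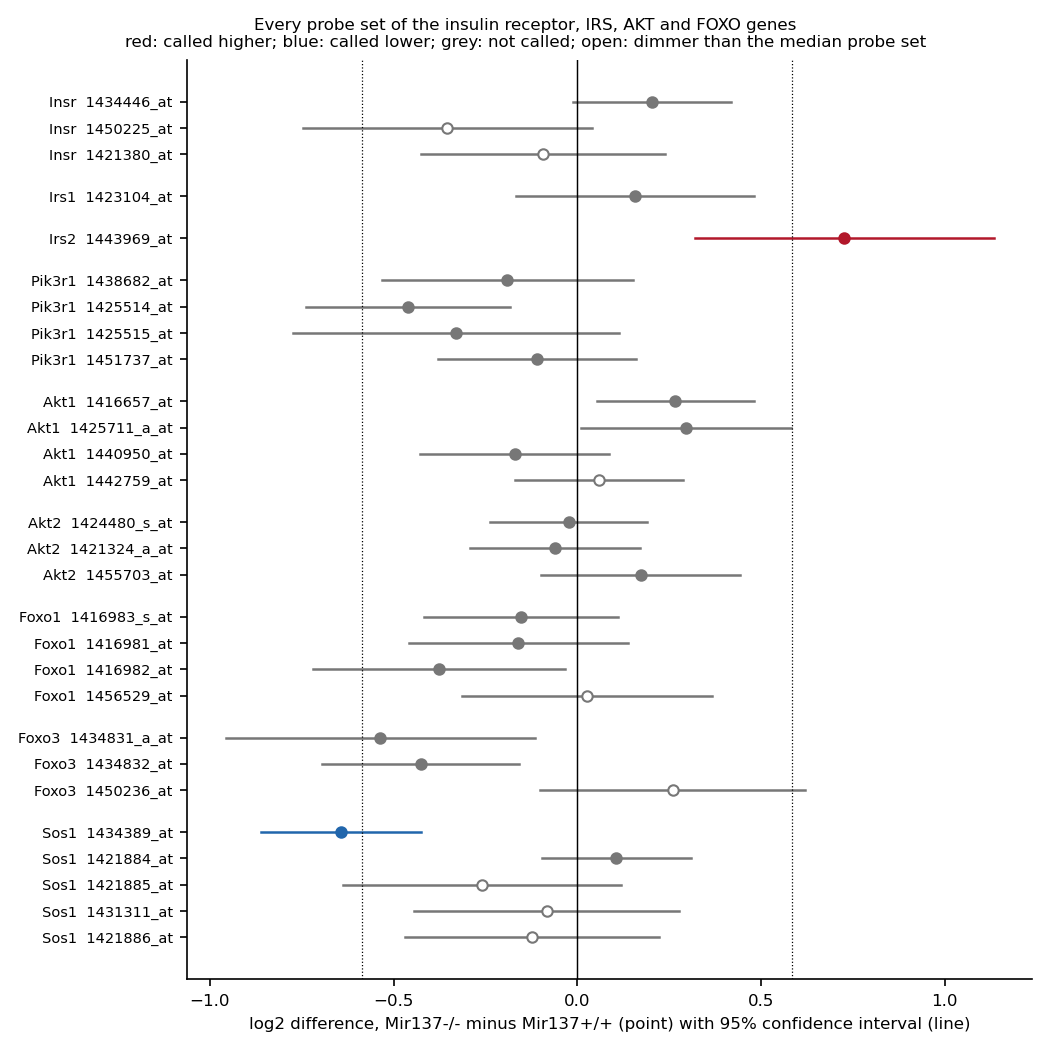
Each row is 1 of the 28 probe sets, grouped by gene; the horizontal axis is the log2 difference, Mir137-/- minus Mir137+/+, with its 95% confidence interval as a line and dotted lines at a fold change of 1.5. Irs2 at 0.73 (red) and the brightest Sos1 probe set at -0.64 (blue) are the 2 called, and open points are dimmer than the median probe set.

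At the receptor, Insr (chr8:3150922-3279649) was read by 3 probe sets and none was called. Its brightest, 1434446_at, stood at 9.74, 9.75 and 9.81 on the log2 scale in Mir137-/- livers, against 9.62, 9.61 and 9.46 in Mir137+/+ livers. The 3 Mir137-/- values were all above the 3 Mir137+/+ values, by little: the difference was 0.20 (SE 0.09, adjusted p = 0.249, limma). The other 2 probe sets were dimmer than the median and pointed the other way, at -0.35 (adjusted p = 0.275) and -0.09 (adjusted p = 0.769), with overlapping groups. Insr transcript thus had no difference past the threshold in either direction, and the interval of the brightest probe set ran from -0.01 to 0.42.

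Irs1 (chr1:82233105-82291439) had 1 probe set, at 9.17, 8.63 and 9.06 in Mir137-/- livers and at 8.80, 8.79 and 8.80 in Mir137+/+ livers. The Mir137-/- values lay on both sides of a nearly constant Mir137+/+ level, and the difference of 0.16 (SE 0.14, adjusted p = 0.583) was within their spread. It was 0.05 without Mir137-/- replicate 1 and 0.32 without replicate 2. The highest Irs1 value was on Mir137-/- replicate 1, the array with muscle transcripts, and the part of muscle RNA in it was not tested.

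Irs2 (chr8:10984681-11008929) also had 1 probe set, 1443969_at, and was the member that rose. Its log2 level was 7.61, 8.37 and 8.07 in Mir137-/- livers, against 7.31, 7.38 and 7.18 in Mir137+/+ livers. Every Mir137-/- value was above every Mir137+/+ value, but the Mir137-/- livers spread over 0.76 log2 units and replicate 1 was only 0.23 above the nearest Mir137+/+ value. The means were 8.02 ± 0.38 in Mir137-/- and 7.29 ± 0.10 in Mir137+/+ livers (SD, n = 3 each). The difference of 0.73 (SE 0.18, 95% interval 0.32 to 1.13) corresponds to 1.66-fold, with an adjusted p of 0.0437 (limma).

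The direction of Irs2 was positive under all 22 alternative settings, with values between 0.55 and 0.93, while the call was lost under 10 of them. It rested on nearly every array: of the 6 fits that each left out 1 array, only that without Mir137-/- replicate 1 still called it (0.93). It was not called without Mir137-/- replicate 2 (0.55) or 3 (0.70), nor without Mir137+/+ replicate 1 (0.74), 2 (0.77) or 3 (0.67). The highest value was on Mir137-/- replicate 2, which carried pancreas transcripts. Without that array Irs2 stood at 0.55 (adjusted p = 0.0964), and without both arrays with pancreas transcripts at 0.595 (adjusted p = 0.172). With the 2 high-Xist arrays left out, so that only Mir137+/+ replicate 1 remained as comparison, the 3 Mir137-/- livers were higher by 0.71 (adjusted p = 0.407).

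The 2 adaptors were also compared within each array, as Irs2 minus Irs1 on the log2 scale. The mean of this difference was larger by 0.57 in Mir137-/- than in Mir137+/+ livers, but the genotypes overlapped and the exact two-sided permutation test gave p = 0.3. It was 0.23 without Mir137-/- replicate 2, 0.28 without both arrays with pancreas transcripts and 0.88 without Mir137-/- replicate 1. The call on Irs2 without one on Irs1 thus did not show that the paralogues differed in their response.

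**Figure D2:**
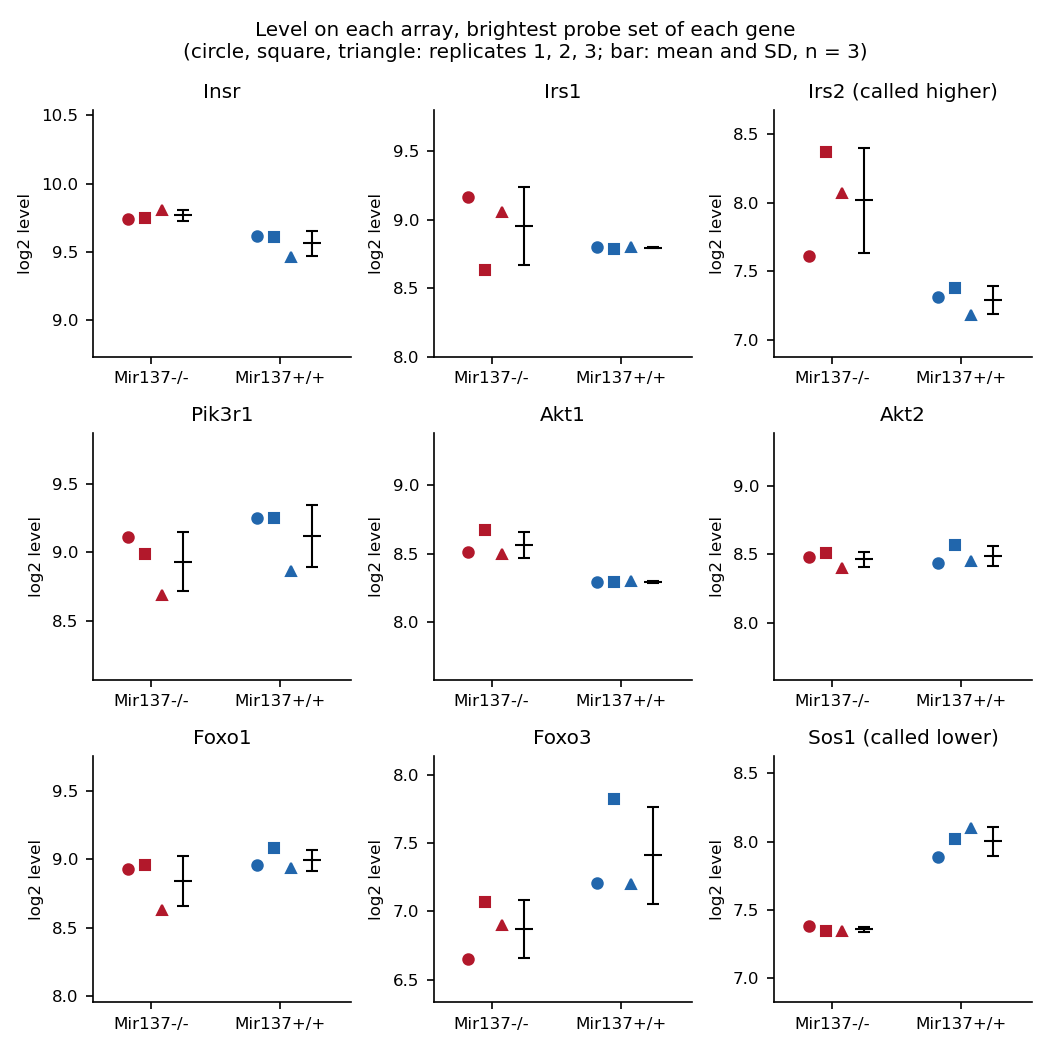
Log2 level on each array (points, with replicates 1, 2 and 3 as circle, square and triangle) for the brightest probe set of each gene, Mir137-/- in red at the left and Mir137+/+ in blue at the right, with mean and SD (n = 3); every panel spans the same log2 range. The genotypes are apart for Insr, Irs2, Akt1, Foxo3 and Sos1, and overlap for Irs1, Pik3r1, Akt2 and Foxo1. By the same measure they are apart for 55.6% of the 9 genes, beside 32.3% of all genes.

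Pik3r1 (chr13:101680761-101768217), the regulatory subunit that both carries PI3K to IRS proteins and holds its catalytic subunit in check, was read by 4 probe sets. All 4 differences were negative, between -0.46 and -0.11, and none was called. The largest was that of 1425514_at, with 7.38, 7.10 and 7.07 in Mir137-/- livers against 7.56, 7.80 and 7.57 in Mir137+/+ livers. Its groups did not overlap, and the difference of -0.46 (SE 0.12) had an adjusted p of 0.0569. The brightest probe set, 1438682_at, read 9.11, 8.99 and 8.69 in Mir137-/- livers and 9.25, 9.25 and 8.86 in Mir137+/+ livers, with overlap and a difference of -0.19 (adjusted p = 0.521). Probe sets of a gene share its RNA, so their common sign is not that of 4 independent measurements.

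The AKT kinases gave different values. Akt1 (chr12:112653821-112674884) stood at 8.51, 8.67 and 8.50 on its brightest probe set in Mir137-/- livers, against 8.29, 8.29 and 8.30 in Mir137+/+ livers. The groups were apart, with a nearly constant Mir137+/+ level, and the difference was 0.27 (SE 0.09, adjusted p = 0.133). A further probe set, 1425711_a_at, gave 0.30 (adjusted p = 0.206) with overlapping groups, and the remaining 2 gave -0.17 and 0.06, so that the mean of all 4 was 0.11.

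Akt2 (chr7:27591552-27640826) had no difference past the threshold. Its brightest probe set, 1424480_s_at, read 8.48, 8.51 and 8.40 in Mir137-/- livers and 8.44, 8.57 and 8.45 in Mir137+/+ livers, a difference of -0.02 (adjusted p = 0.918) with an interval from -0.24 to 0.19 that leaves out a change of 1.5-fold in either direction. Names ending in _s_at, here and for Foxo1, mark probe sets that can match transcripts of more than 1 gene. The other 2 Akt2 probe sets gave -0.06 and 0.17, again with overlap. The sign of so small a value had no meaning: 6 of 21 alternatives turned it.

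Within each array, Akt2 minus Akt1 was -0.03, -0.16 and -0.10 in Mir137-/- livers and 0.15, 0.28 and 0.15 in Mir137+/+ livers. The levels of 2 probe sets are not comparable, but their difference can be compared between genotypes, and it was lower by 0.29 in Mir137-/- livers, with no overlap. The exact permutation p was 0.1, the smallest that 3 against 3 arrays allow, and 0.3 after adjustment over the 3 paralogue pairs. With the mean of each gene's probe sets the contrast was only -0.08 (exact permutation p = 0.2). Neither Akt1 nor Akt2 passed the call.

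Among the FOXO factors, Foxo1 (chr3:52268337-52350109) had 4 probe sets, with differences of -0.38 to 0.03 and no call. The brightest, 1416983_s_at, read 8.93, 8.96 and 8.63 in Mir137-/- livers, against 8.96, 9.08 and 8.94 in Mir137+/+ livers, so that replicates 1 and 3 of the Mir137-/- livers stood below all 3 Mir137+/+ livers and replicate 2 lay among them (-0.15, adjusted p = 0.499). Its probe set 1416982_at was at 8.05, 8.06 and 7.53 in Mir137-/- livers and 8.34, 8.25 and 8.18 in Mir137+/+ livers, apart but not called (-0.38, adjusted p = 0.184). Mir137-/- replicate 3 was the lowest array on all 3 bright Foxo1 probe sets, and without it the brightest differed by -0.05.

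Foxo3 (chr10:42181845-42276695) had 3 probe sets, none of them called. Its brightest probe set, 1434831_a_at, was at 6.65, 7.07 and 6.90 in Mir137-/- livers, against 7.21, 7.82 and 7.20 in Mir137+/+ livers. Its next brightest, 1434832_at, was at 6.41, 6.77 and 6.57 in Mir137-/- livers, against 6.90, 7.06 and 7.07 in Mir137+/+ livers. On both, the groups did not overlap, at -0.54 (SE 0.18, adjusted p = 0.125) and -0.43 (SE 0.12, adjusted p = 0.0656), and neither was called. The third probe set was dim and gave 0.26 (adjusted p = 0.388). The high value of 7.82 came from Mir137+/+ replicate 2, and without that array the brightest probe set differed by -0.33. The mean of the 3 probe sets gave -0.23. The within-array difference Foxo3 minus Foxo1 was lower by 0.38 in Mir137-/- livers, with overlap (exact permutation p = 0.3). It was -0.07 with the mean of each gene's probe sets, -0.22 without Mir137+/+ replicate 2 and -0.23 without Mir137-/- replicate 1.

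Sos1 (chr17:80393752-80480453), the RAS activator, was the member that fell. Its brightest probe set, 1434389_at, was at 7.38, 7.35 and 7.35 in Mir137-/- livers, against 7.89, 8.02 and 8.10 in Mir137+/+ livers. The gap between the genotypes was larger than the spread within either: the means were 7.36 ± 0.02 in Mir137-/- and 8.003 ± 0.11 in Mir137+/+ livers (SD, n = 3 each). The difference of -0.64 (SE 0.10, 95% interval -0.86 to -0.42) had an adjusted p of 0.00584, and Sos1 was called in each of the 6 fits that left out 1 array, with values between -0.70 and -0.595.

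The other 4 Sos1 probe sets did not follow. The next brightest, 1421884_at, was at 5.75, 5.73 and 5.81 in Mir137-/- livers and 5.65, 5.62 and 5.70 in Mir137+/+ livers, apart in the opposite direction by 0.11 (adjusted p = 0.545). The remaining 3 were dimmer than the median probe set, at -0.26, -0.12 and -0.08, with overlap. With the mean of all 5 probe sets, Sos1 differed by -0.20 and was not called (adjusted p = 0.218). Without the 2 high-Xist arrays it was -0.53, not called (adjusted p = 0.227), and without both arrays with pancreas transcripts -0.63 (adjusted p = 0.0761).

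**Figure D3:**
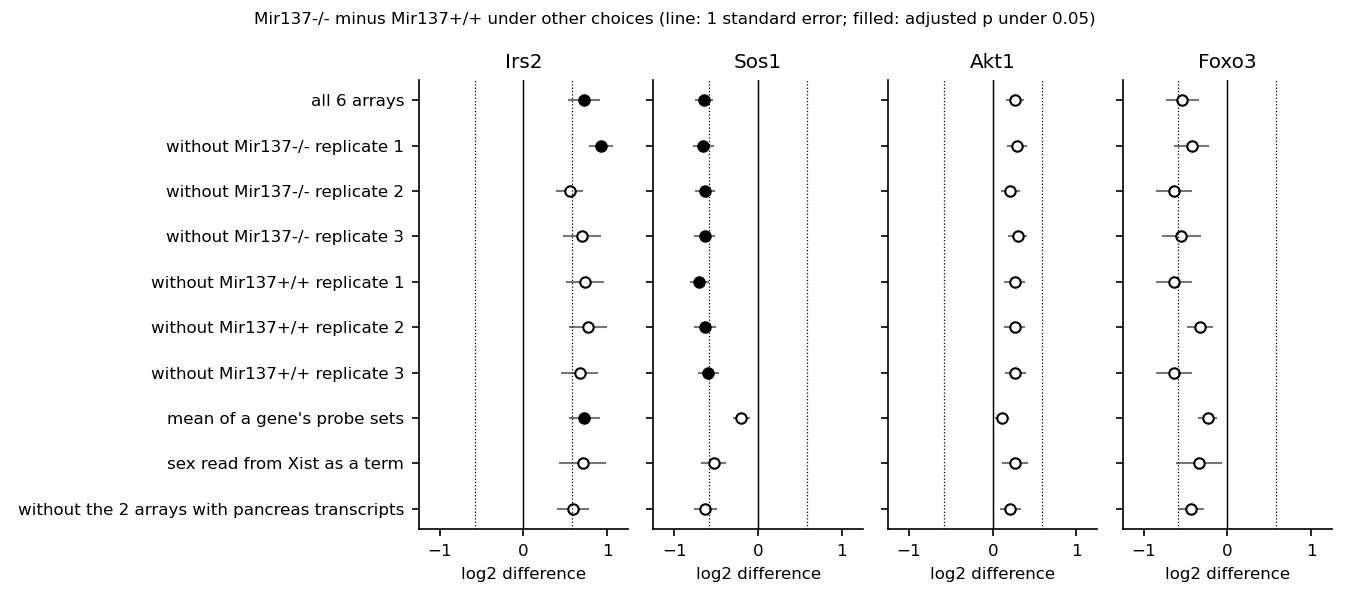
Log2 difference, Mir137-/- minus Mir137+/+, of Irs2, Sos1, Akt1 and Foxo3 with all 6 arrays, without each array in turn, and under 3 further choices, with 1 standard error as a line; filled points have an adjusted p under 0.05 and dotted lines mark a fold change of 1.5. Irs2 stays between 0.55 and 0.93 and keeps its call without only 1 of the 6 arrays, while Sos1 keeps its call whichever of them is left out and drops to -0.20 with the mean of its probe sets.

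The genes whose values over the 6 arrays were most like those of Irs2 and Sos1 were found by Pearson's r over all genes, as a description. For Irs2 they were Pik3ca (0.995), the catalytic p110 alpha subunit of PI3K, then Zbtb10 and Setdb2 (both 0.994), and none of the 3 was called. Pik3ca differed by only 0.21 on the log2 scale, so that r speaks of the pattern over the arrays and not of the size of the difference. Both values are of its brightest probe set. The mean difference of its 6 probe sets was -0.0028, with none called. For Sos1 they were Cnp (0.999), Vpreb1 (0.997) and Tst (0.997), of which Cnp (-0.84) and Vpreb1 (-2.08) fell. These are the highest values among 18193 genes over only 6 arrays, and no p is given for them.

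Around these 9 genes, 91 further genes of the pathway were measured, grouped into 8 lists by role. Of them 8 rose and 6 fell, beside 2.29% and 3.27% of all genes, and the median difference was 0.04, beside 0.0033 over all genes. Without the 2 high-Xist arrays the counts were 1 higher and 4 lower, and without both arrays with pancreas transcripts 2 higher and 5 lower. The lists were put together with earlier results of these arrays in view, so their counts describe them and test nothing.

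Among ligands and the IGF receptor (5 of 6 listed genes measured), Igf1 fell and Igf1r rose. Igf1, the growth factor made by liver under growth hormone, was at 11.05, 10.82 and 11.25 in Mir137-/- livers, against 12.35, 12.48 and 12.44 in Mir137+/+ livers, a difference of -1.38 (adjusted p = 6.22e-04). Igf1r, its receptor and a close relative of Insr, was at 6.69, 6.67 and 6.49 in Mir137-/- livers, against 5.80, 6.16 and 6.06 in Mir137+/+ livers. That rise of 0.61 (adjusted p = 0.0202) was just over the fold threshold, and the mean of its 5 probe sets gave 0.28 with no call. Insrr (-0.07), Ins2 (0.22) and Igf2 (-0.03, named after its values were seen) were not called. The mean difference of the 2 Igf2 probe sets was 0.28, with neither called. Ins2 was at 6.90 on Mir137-/- replicate 2 and 6.39 on Mir137+/+ replicate 2, the arrays with pancreas transcripts, and at 5.32 to 5.50 elsewhere.

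Of 13 measured adaptors and receptor-bound inhibitors, Grb10 rose. GRB10 binds the activated insulin and IGF1 receptors and restrains their signal. It was at 9.81, 9.67 and 9.73 in Mir137-/- livers, against 9.13, 9.23 and 8.95 in Mir137+/+ livers (0.63, adjusted p = 0.00991). Shc1, an adaptor that leads to SOS1 and RAS, differed by 0.43 (adjusted p = 0.0448), under the fold threshold, and Ptpn11 by 0.13. Grb2, the adaptor that holds SOS1, differed by 0.04 on its brightest probe set (adjusted p = 0.868), and the mean difference of its 2 probe sets was -0.20, with neither called. Grb14, a relative of Grb10, differed by 0.07. Both genes were named after their values were seen.

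None of 11 measured PI3K subunits and AKT activators was called, beside 5.56% of all genes, so that few calls could be looked for among them. The smallest p among them belonged to the kinase Mtor (0.33, adjusted p = 0.110) and to Pik3ca (0.21, adjusted p = 0.256). The mean difference was 0.12 over the 3 Mtor probe sets and -0.0028 over the 6 of Pik3ca. Of 12 measured phosphatases and inhibitors of the pathway, Trib3 rose. TRIB3 is a pseudokinase that binds AKT and is induced by endoplasmic reticulum and nutrient stress. It was at 7.41, 7.74 and 7.91 in Mir137-/- livers, against 6.77, 6.99 and 6.73 in Mir137+/+ livers (0.86, adjusted p = 0.00980). Phlpp1, a phosphatase of AKT, differed by 0.29 (adjusted p = 0.101), and Socs3, an inhibitor induced by cytokines, by 0.53 (adjusted p = 0.372) with a value of 7.72 on Mir137-/- replicate 2 and 6.13 to 6.81 on the other arrays.

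Of 13 measured AKT substrates and mTORC1 genes, Eif4ebp1, which encodes an inhibitor of cap-dependent translation, rose by 0.66 (adjusted p = 0.0378), but the mean of its 3 probe sets gave 0.31 (adjusted p = 0.126) with no call, and without the 2 high-Xist arrays it was 0.40. Foxo4, the third FOXO factor of liver read here, differed by -0.37 (adjusted p = 0.0760), and Tsc1 by 0.25. Another of the 3 Tsc1 probe sets was called, and the mean difference of the 3 was 0.43. In the RAS and MAP kinase branch (11 of 16 measured), in which SOS1 acts, Spry4 fell. SPRY4 is an inhibitor of RAS signalling that the pathway itself induces, and it was at 5.87, 5.68 and 5.87 in Mir137-/- livers, against 6.86, 6.14 and 6.64 in Mir137+/+ livers (-0.74, adjusted p = 0.0381). Spry2, its relative, pointed the other way at 0.44 (adjusted p = 0.0867), the phosphatase gene Dusp6 was at -0.33 (adjusted p = 0.108), and Sos2, the paralogue of Sos1, was at -0.11 (adjusted p = 0.652) and was named after its values were seen.

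Transcripts known to rise when insulin is low, through FOXO1, went in both directions (16 of 16 measured, 3 higher and 2 lower, median -0.01). Pdk4, which shuts pyruvate off from oxidation, was at 9.72, 9.70 and 9.37 in Mir137-/- livers, against 7.29, 8.01 and 7.44 in Mir137+/+ livers (2.02, 4.05-fold, adjusted p = 7.97e-04). Igfbp1, the IGF binding protein that insulin represses, rose by 0.72 (adjusted p = 0.00297), and Gadd45a, a growth arrest gene, by 0.68 (adjusted p = 0.00606). Bcl6, a repressor, was at 4.48, 4.63 and 4.59 in Mir137-/- livers, against 5.97, 5.76 and 6.60 in Mir137+/+ livers (-1.54, adjusted p = 0.00276). Only 1 of its 2 probe sets was called, and their mean gave -0.90, still called. Apoc3, an inhibitor of lipoprotein lipase, fell by 1.26 (adjusted p = 2.71e-04). Cited2 (-0.44, adjusted p = 0.0454) missed the fold threshold, with Cdkn1b at -0.34 (adjusted p = 0.159). The enzymes of glucose production G6pc (0.25, adjusted p = 0.340) and Pck1 (0.03, adjusted p = 0.907) were not called and were named after their values were seen.

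Of 11 measured genes that insulin induces in liver, 9 were negative, and the median was -0.37, beside 0.0033 over all genes. Fasn, which makes fatty acids, was at 7.09, 7.03 and 7.12 in Mir137-/- livers, against 8.16, 8.22 and 8.53 in Mir137+/+ livers (-1.22, adjusted p = 8.84e-04). Egr1, an early response gene of the MAP kinase arm, was at 8.21, 8.29 and 8.95 in Mir137-/- livers, against 10.75, 10.03 and 9.52 in Mir137+/+ livers (-1.62, adjusted p = 0.0164). Acly, which supplies acetyl-CoA, narrowly missed the fold threshold on its brightest probe set at -0.58 (adjusted p = 0.0206). Another of its 6 probe sets was called, and the mean difference of the 6 was -0.37. Srebf1, the gene of the lipogenic factor SREBP1, was at -0.32 (adjusted p = 0.156). Elovl6, an elongase of the same pathway, went the other way, higher by 0.83 (adjusted p = 0.0428), and Me1, a further lipogenic enzyme, was at 0.44 (adjusted p = 0.0854). Srebf1 was named after its values were seen.

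Several of these calls rested on single arrays. Igf1, Trib3, Igfbp1, Pdk4, Gadd45a, Bcl6, Apoc3 and Fasn were called in each of the 6 fits that left out 1 array. Without both arrays with pancreas transcripts, Trib3 (0.91, adjusted p = 0.0731, limma) and Gadd45a (0.735, adjusted p = 0.0515) lost the call. With the 2 high-Xist arrays left out, only Mir137+/+ replicate 1 remained as comparison. There Igf1 (-1.31), Trib3 (0.92), Igfbp1 (0.78) and Gadd45a (0.67) were no longer called. Grb10 dropped under the fold threshold without Mir137+/+ replicate 3 (0.56). Egr1 lost its call without Mir137-/- replicate 1 (-1.48) or 2 (-1.52) and without Mir137+/+ replicate 2 (-1.65). Igf1r lost it without Mir137-/- replicate 1 (0.57) or 2 (0.58) and without Mir137+/+ replicate 1 (0.51) or 3 (0.64). Eif4ebp1, Spry4 and Elovl6 were each called in only 1 of the 6 fits. That was the fit without Mir137+/+ replicate 1 for Eif4ebp1 (0.79), replicate 2 for Spry4 (-0.94) and replicate 3 for Elovl6 (0.99). In the fits that lost the call, Eif4ebp1 lay between 0.52 and 0.73, Spry4 between -0.77 and -0.58 and Elovl6 between 0.59 and 0.90.

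**Figure D4:**
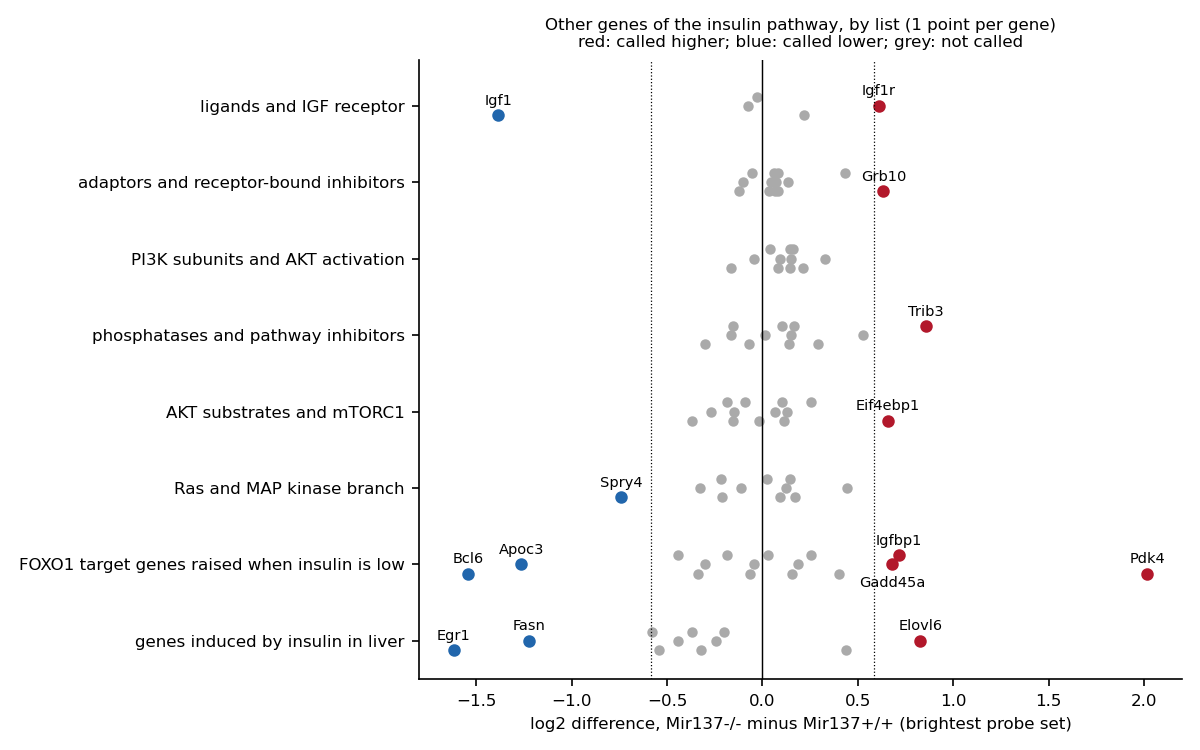
Log2 difference, Mir137-/- minus Mir137+/+, of each measured gene of the 8 lists (1 point per gene, brightest probe set; dotted lines at a fold change of 1.5), with called genes named, red where higher and blue where lower. Igf1 (-1.38), Bcl6 (-1.54) and Egr1 (-1.62) lie farthest to the left and Pdk4 (2.02) farthest to the right. None of the 11 PI3K subunits and AKT activators is called, beside 5.56% of all genes.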

How the data were processed

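The authors hybridised biotin-labelled cRNA from total RNA of 6 livers (3 Mir137-/- and 3 Mir137+/+, postnatal day 14, grouped by the genotype label) to a whole-genome mouse GeneChip of Affymetrix. The values deposited by the authors are log2 probe set summaries from 1.22 to 13.79. The study's methods name RMA with baseline-to-mean normalization and the submitters' processing notes name GCRMA without a version. Array medians differed by little, so no further normalization was applied, and RMA-type summaries compress the changes of dim probe sets. Depth has no counterpart on arrays: the number of mice limits the precision, and 3 against 3 cannot give an exact two-sided p below 0.1. Scanner files and detection calls were not used here.

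Of 45101 probe sets, 64 controls were left out. The platform annotation gave 1 gene symbol to 34945 of the tested probe sets, several to 932 and none to 9160, and 34741 matched the RefSeq gene table (GRCm38.p6) by Entrez gene. All 45037 probe sets were fitted with limma 3.58.1 in R 4.3.3 (lmFit on 2 group means, eBayes), as Mir137-/- minus Mir137+/+, with p-values adjusted by Benjamini-Hochberg over the whole table; SE and intervals are those of the moderated fit. The fit was run on simulated arrays with planted changes larger than those of Irs2 and Sos1, as a check of the code and not of their calls. Where 1 value per gene is given, the brightest probe set was taken, by its mean of all 6 values. A list's summed level is the log2 of the sum of its genes' unlogged values. All members were named, and from each list the called genes and up to 2 further genes of smallest p; others are marked. The members, the lists and the motifs were chosen with earlier results of these data known. Promoter windows and microRNA sequences came from RefSeq tables of GRCm38.p6. A search of protein motifs and paralogue identity and a search of miR-137 seed matches in transcripts were planned and not run, since no protein or transcript sequence was used here. Alternatives were other normalizations and filters, other ways to take 1 value per gene, array weights (statmod 1.5.0), the methods' t-test, the replicate number as a block, each array left out, sex read from Xist as a term, and the arrays with high Xist, pancreas or muscle transcripts left out. Figures were drawn with matplotlib 3.10.9 in Python 3.11.15.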

Additional observations from a re-analysis of the deposited data

How the results depend on the processing

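With 3 mice per genotype, every call rests on few values, and fits without the arrays that stand apart lose samples as well. Pancreas transcripts occur on 1 array of each genotype, but high Xist only on 2 Mir137+/+ arrays and muscle transcripts only on 1 Mir137-/- array. Members called higher numbered 0 in place of 1 with the methods' t-test after Benjamini-Hochberg, with sex as a term, without the arrays with high Xist, without those with pancreas transcripts and without those with muscle or pancreas transcripts, and 0 to 1 when 1 array was left out. Members called lower numbered 0 when a gene's probe sets were averaged and without the arrays with pancreas transcripts. They stayed at 1 with the t-test and in each fit that left out 1 array. Both with sex as a term and without the arrays with high Xist, Sos1 differed by -0.53, under the fold threshold. Without the arrays with muscle or pancreas transcripts it differed by -0.645. The sex term leaves Mir137-/- against Mir137+/+ replicate 1 alone, and without the muscle and pancreas arrays 1 Mir137-/- array stands against 2 Mir137+/+ arrays. Over the whole table, 874 probe sets were higher and 1162 lower. The counts were 425 and 607 with the brightest probe set per gene, 330 and 509 with the mean per gene, 1517 and 1964 without the fold threshold, and 196 and 279 with the t-test. They were 289 and 353 with sex as a term, 125 and 157 without the high-Xist arrays, 393 and 574 without the pancreas arrays, and 0 and 0 without the muscle and pancreas arrays. Of the pathway genes, 8 rose and 6 fell. Higher ones numbered 1 with the t-test, 3 with the sex term, 1 without the high-Xist arrays, 2 without the pancreas arrays, 0 without muscle and pancreas arrays, and 5 to 7 without 1 array. Lower ones numbered 3 with the t-test and 0 without muscle and pancreas arrays. Insr turned to -0.0811 with the mean of its probe sets. Akt2 turned to 0.0175 after quantile normalization, to 0.0233 both with sex as a term and without the high-Xist arrays, and to 0.03 with the mean of its probe sets. With 1 array left out it lay between -0.0467 (without Mir137-/- replicate 2) and 0.0183 (without Mir137+/+ replicate 2), and without Mir137-/- replicate 3 it was 0.0083. Where not given by the smaller number of arrays or genes, the cause was not tested. Same-numbered arrays had residual correlations of 0.081, 0.211 and 0.004, so the numbers were not taken as pairs. With the replicate block the members called stayed at 1 higher and 1 lower, and of the pathway genes only Eif4ebp1 lost its call (adjusted p = 0.0574).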
